A study of Mus musculus with 6 samples.

Results

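The genes described here are 32 genes of the ATF4 programme of the integrated stress response, taken by symbol from the 24411 symbols counted in each library. They comprise 7 transcription factors and cofactors, 6 genes of the kinases and phosphatase subunits that act on the initiation factor eIF2, 8 genes of amino acid synthesis, 4 secreted signals and 7 other effectors. All 32 passed the filter on low counts. RNA came from myotubes of wild-type C2C12 cells, an immortalised mouse myoblast line that fuses into muscle fibres in medium with 2% horse serum. Differentiated cultures of this single line were kept for 72 h with 10 µM Sardomozide dihydrochloride, an inhibitor of the enzyme encoded by Amd1, or with the solvent DMSO. There were 3 libraries with Sardomozide and 3 with DMSO.

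In the integrated stress response, kinases that sense amino acid shortage, unfolded protein, double-stranded RNA or lack of haem phosphorylate eIF2 and lower translation in general, while the messenger RNA of ATF4 is translated more. ATF4 then pairs with C/EBP factors and switches on genes of amino acid uptake and synthesis, tRNA charging, redox defence and feedback. One feedback product, the phosphatase subunit encoded by Ppp1r15a, brings translation back, and in muscle FGF21 and GDF15 are known as hormones released under mitochondrial stress. Counts of RNA show neither eIF2 phosphorylation nor the amount of ATF4 protein.

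Library totals ran from 30820423 to 36709804 counts with Sardomozide and from 25496323 to 32108033 with DMSO. Of 13076 genes tested with edgeR's quasi-likelihood test, 16.3% had a Benjamini-Hochberg adjusted p under 0.05, with 7.88% higher and 8.45% lower in Sardomozide. The labels name the cell type as myoblasts and the samples as myotubes, and the libraries held the RNA of differentiated muscle. The 7 myotube marker genes listed in the files (Acta1, Ckm, Myh3, Myog, Tnnt3, Ttn and Des) summed to 16230 to 19160 CPM (counts scaled by library size) with Sardomozide and to 16170 to 17260 CPM with DMSO, and 1 of the 7, Myog, rose (log2 fold change 0.24, edgeR adjusted p = 0.000547). Of the 4 adipocyte markers, 3 had no count in any library, and the fourth, Fabp4, had 2 counts in all. The 4 myoblast markers (Pax7, Myf5, Myod1 and Cdh15) summed to 932 to 982 CPM with Sardomozide and to 1009 to 1034 CPM with DMSO, with 0 of 4 passing edgeR's test (2 of 4 lower at an unadjusted p under 0.05). Of these Cdh15 (−0.12, edgeR adjusted p = 0.054) was called lower by DESeq2 and limma-voom. Here and below, the share of all genes tested under an unadjusted p of 0.05 was not counted. Numbers of genes under that cutoff therefore have no background beside them and cannot be set against the 7.88% and 8.45%. The 4 cycling markers summed to 249 to 292 CPM with Sardomozide and to 231 to 253 CPM with DMSO, and Mki67 alone of them rose (0.16, edgeR adjusted p = 0.0443), with 2 of 4 higher at an unadjusted p under 0.05. The Mki67 call was lost in 5 of 6 fits without a library (adjusted p up to 0.231) and with DESeq2 and limma-voom, whereas DESeq2 called Top2a (0.22, edgeR adjusted p = 0.0906) higher. The 4 fibroblast markers summed to 7880 to 8919 CPM with Sardomozide and to 7534 to 9037 CPM with DMSO, with 0 of 3 tested passing by edgeR, DESeq2 or limma-voom (1 lower at an unadjusted p under 0.05) and Thy1 at no more than 3 counts in any library. In bulk RNA, fewer cells of a type and less RNA per cell cannot be told apart, and what unfused or cycling cells contributed to the changes below was not tested. Sardomozide replicate 2 stood apart in Ttn, at 4042 CPM against 1371 to 1744 CPM in the other 5 libraries.

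The sequences below show where the element that ATF4 and C/EBP proteins bind together lies in promoters of these genes. Promoters of 300 bases, 250 before and 50 after the gene start (RefSeq, GRCm38.p6), matched 29 of the 32 genes by symbol, with 35 promoters among them. The letters TGATGNAA, the shared core of such C/EBP-ATF elements, were searched on both strands and were found in 9 of the 35 promoters (25.7%), against 1304 of all 32851 promoters (3.97%). Many of the 32 genes are known for this element, so the share describes the choice of genes. Each window below has 30 bases, runs 5′ to 3′ in the direction in which the core reads TGATGNAA, and has the core in capitals.
Atf3 (chr1:191183425-191183454, plus strand): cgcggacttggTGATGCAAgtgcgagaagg
Nupr1 (chr7:126625562-126625591, plus strand): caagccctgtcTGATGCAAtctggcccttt
Asns (chr6:7693214-7693243, minus strand): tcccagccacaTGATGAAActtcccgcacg
Pck2 (chr14:55540152-55540181, minus strand): ctgtaagatacTGATGTAActttgaaggct
Pycr1 (chr11:120643833-120643862, minus strand): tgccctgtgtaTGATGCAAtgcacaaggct
Fgf21 (chr7:45615611-45615640, plus strand): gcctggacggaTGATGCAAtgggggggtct
Chac1 (chr2:119351038-119351067, minus strand): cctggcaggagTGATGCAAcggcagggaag
Trib3 (chr2:152344028-152344057, plus strand): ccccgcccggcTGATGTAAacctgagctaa
Vldlr (chr19:27216809-27216838, minus strand): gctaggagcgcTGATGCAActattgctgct
The core read TGATGCAA in 6 of the 9 windows, TGATGTAA in Pck2 and Trib3, and TGATGAAA in Asns. On the strand of the gene, the first base of the core lay 110 bases before the RefSeq start in Atf3 and Nupr1, 139 in Fgf21 and 193 in Chac1. It lay 103 bases before that start in Pck2 and Pycr1, 23 in Asns, and 14 bases after it in Trib3. In Vldlr it lay 200 bases before the start of the promoter at chr19:27216770-27217069. The other Vldlr promoter (chr19:27216234-27216533) held no match. By the GENCODE positions used elsewhere here, the core lies inside the gene in Atf3, Nupr1, Asns and Vldlr, and before it in Trib3. Of the 9 genes with a match, Fgf21 rose (11.1%, against 7.88% of all genes tested) and 8 did not pass. Of the 20 genes whose promoters held no match, 4 rose (20%), namely Cebpb, Ppp1r15a, Phgdh and Stc2, and Atf5 fell (5%, against 8.45%). Whether the calls differ between these sets was not tested. Ppp1r15b, which rose, Cth and Eif4ebp1 had no promoter sequence here. A match is a description of letters in this window and no match says nothing of binding elsewhere.

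The 250 bases before the start are shown for the genes whose contrast the results turn on, Fgf21 and Ppp1r15a, which rose, and Chac1, which did not pass. They run 5′ to 3′ on the strand of the gene. Capitals mark the C/EBP-ATF core in Fgf21 and Chac1, where it is read from the other strand as TTGCATCA, and the palindrome TGACGTCA, an ATF/CREB site, in Ppp1r15a.
Fgf21 (chr7:45615491-45615740, minus strand): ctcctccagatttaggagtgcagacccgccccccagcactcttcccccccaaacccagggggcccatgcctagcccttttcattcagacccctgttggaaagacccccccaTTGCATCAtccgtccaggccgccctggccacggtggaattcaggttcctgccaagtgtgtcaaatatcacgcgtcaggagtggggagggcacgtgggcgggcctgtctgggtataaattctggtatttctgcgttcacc
Ppp1r15a (chr7:45526269-45526518, minus strand): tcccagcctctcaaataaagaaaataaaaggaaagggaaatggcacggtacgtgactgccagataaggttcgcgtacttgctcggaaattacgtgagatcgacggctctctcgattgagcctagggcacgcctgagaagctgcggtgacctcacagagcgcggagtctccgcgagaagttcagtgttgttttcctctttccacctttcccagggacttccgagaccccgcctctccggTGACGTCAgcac
Chac1 (chr2:119350992-119351241, plus strand): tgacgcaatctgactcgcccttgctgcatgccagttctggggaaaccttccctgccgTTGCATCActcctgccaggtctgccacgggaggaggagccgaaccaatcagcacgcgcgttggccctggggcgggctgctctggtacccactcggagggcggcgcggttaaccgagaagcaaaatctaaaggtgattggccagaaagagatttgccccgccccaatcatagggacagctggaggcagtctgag
The palindrome was looked for after the Ppp1r15a sequence had been seen. It began 12 bases before the start of Ppp1r15a, in 1 of the 35 promoters of these genes and in 588 of all 32851 (1.79%). No C/EBP-ATF core was found in the Ppp1r15a promoter.

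Myotubes given Sardomozide had more RNA of Stc2 and Fgf21, secreted factors, of both eIF2 phosphatase subunit genes, of the factor gene Cebpb and of Phgdh, which opens serine synthesis, and less of Atf5. Of the 32 genes, 6 rose (18.8%, against 7.88% of all genes tested), 1 fell (3.1%, against 8.45%) and 25 did not pass. Classic target genes such as Asns, Chac1, Trib3 and Ddit3 were among the 25. The largest change, that of Stc2, was 88.9%, and the smallest among genes that passed, that of Ppp1r15b, was 9.51%. The Ppp1r15b call was lost with DESeq2 and limma-voom (adjusted p = 0.0627 and 0.0539), with which 5 of the 32 genes rose. It was also lost in most fits without a library. The libraries of the groups did not overlap for 19 of the 32 genes (16 higher and 3 lower with Sardomozide), against 33.5% of all genes tested (17% higher and 16.5% lower). The median log2 fold change of the 32 genes was 0.104, beside −0.0008 for all genes tested. Without Sardomozide replicate 2, which stood apart in Ttn, 6 rose and 1 fell, with Vegfa gained (adjusted p = 0.0378) and Ppp1r15b lost (0.138).

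**Figure D1:**
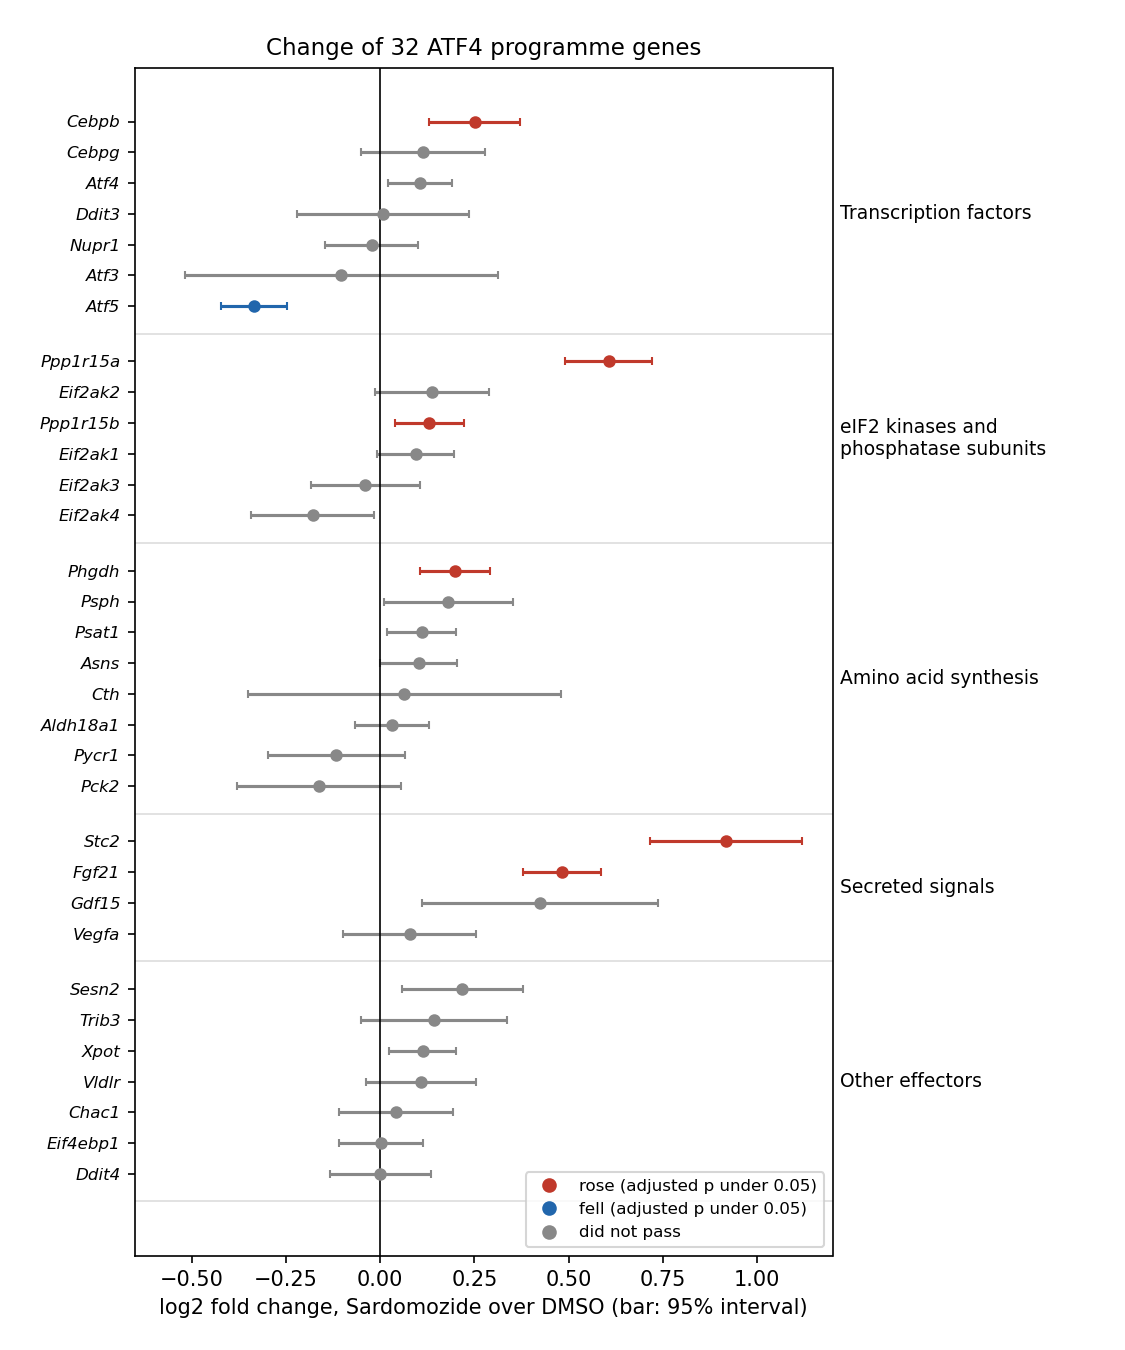
Log2 fold change, Sardomozide over DMSO, of the 32 genes by class, with 95% intervals from edgeR's fit. Red points rose, the blue point fell and grey points did not pass; Stc2 at 0.92, Ppp1r15a at 0.61 and Fgf21 at 0.48 lie farthest to the right and Atf5 at −0.33 farthest to the left.

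Among the transcription factors, Cebpb rose, Atf5 fell, and Atf4, Atf3, Ddit3, Cebpg and Nupr1 did not pass. The 1 rise and the 1 fall were each 14.3% of the 7, against 7.88% and 8.45% of all genes tested. At an unadjusted p under 0.05, 2 of the 7 were higher and 1 lower. Atf4 encodes the central factor of the response. It had 360, 380 and 372 CPM in the Sardomozide libraries, against 343, 348 and 342 CPM in the DMSO libraries. The groups did not overlap, but the difference of 7.64% gave an adjusted p of 0.0825 (log2 fold change 0.11 ± 0.041, SE). Over the fits without a library the adjusted p ran from 0.0373, without Sardomozide replicate 1, to 0.221.

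Atf5 encodes a related factor whose messenger RNA, like that of Atf4, is translated more when eIF2 is phosphorylated. It had 155, 161 and 158 CPM with Sardomozide, against 194, 203 and 199 CPM with DMSO. Every Sardomozide library lay below every DMSO library. Atf5 fell by 0.33 on the log2 scale (SE 0.042, edgeR adjusted p = 1.55e-05), and the call was kept whichever library was left out. Per exon length, Atf5 stood at 0.504 ± 0.0049 of the Atf4 level with Sardomozide and at 0.684 ± 0.012 with DMSO (SD, n = 3). An exact permutation test, two-sided, gave p = 0.1, which is the lowest value that 3 against 3 libraries can reach. The gene (chromosome 7, 44812256 to 44816658, GRCm38, minus strand) shares exon bases with Nup62 and Il4i1 on the other strand, 164 in all. Nup62 rose (0.21 ± 0.051, edgeR adjusted p = 0.00688), and Il4i1 was near 0 (0 CPM with Sardomozide and 0.0216 CPM with DMSO).

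Cebpb encodes C/EBP beta, which can pair with ATF4 on the composite element. It had 100.1, 94.7 and 88.2 CPM with Sardomozide, against 76.2, 75.6 and 86.0 CPM with DMSO. The groups did not overlap, although Sardomozide replicate 3 and DMSO replicate 3 lay close together. The rise was 19.0% (log2 fold change 0.25 ± 0.058, adjusted p = 0.00525 by edgeR). This gene, a single exon on chromosome 2 (167688915 to 167690418), shares 312 exon bases with Tmem189 on the other strand. Tmem189 rose as well, with a mean of 197 CPM with Sardomozide and 153 CPM with DMSO (0.36 ± 0.042, edgeR adjusted p = 6.58e-06), and reads from the shared bases cannot be told apart if strand was not used in counting. Cebpg, another partner of ATF4, had 30.6, 33.0 and 35.0 CPM with Sardomozide, against 26.7, 33.0 and 31.1 CPM with DMSO, and the groups overlapped (adjusted p = 0.358).

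Ddit3, which encodes the death-linked factor CHOP, had 12.3, 11.3 and 13.3 CPM with Sardomozide, against 11.7, 11.1 and 13.8 CPM with DMSO. The libraries of the groups were interleaved. Ddit3 shares 81 exon bases with genes on the other strand, among them Mars, which rose (0.16 ± 0.049, edgeR adjusted p = 0.0277). The 95% interval of its log2 fold change, −0.22 to 0.24, leaves out larger changes in either direction. Atf3, a stress-induced factor, was low (2.98 to 3.97 CPM with Sardomozide and 2.95 to 4.76 CPM with DMSO), with an interval of −0.52 to 0.31. Nupr1, a small stress-induced nuclear protein gene, had 54.0 to 55.6 CPM with Sardomozide and 50.8 to 58.6 CPM with DMSO (−0.02 ± 0.059).

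**Figure D2:**
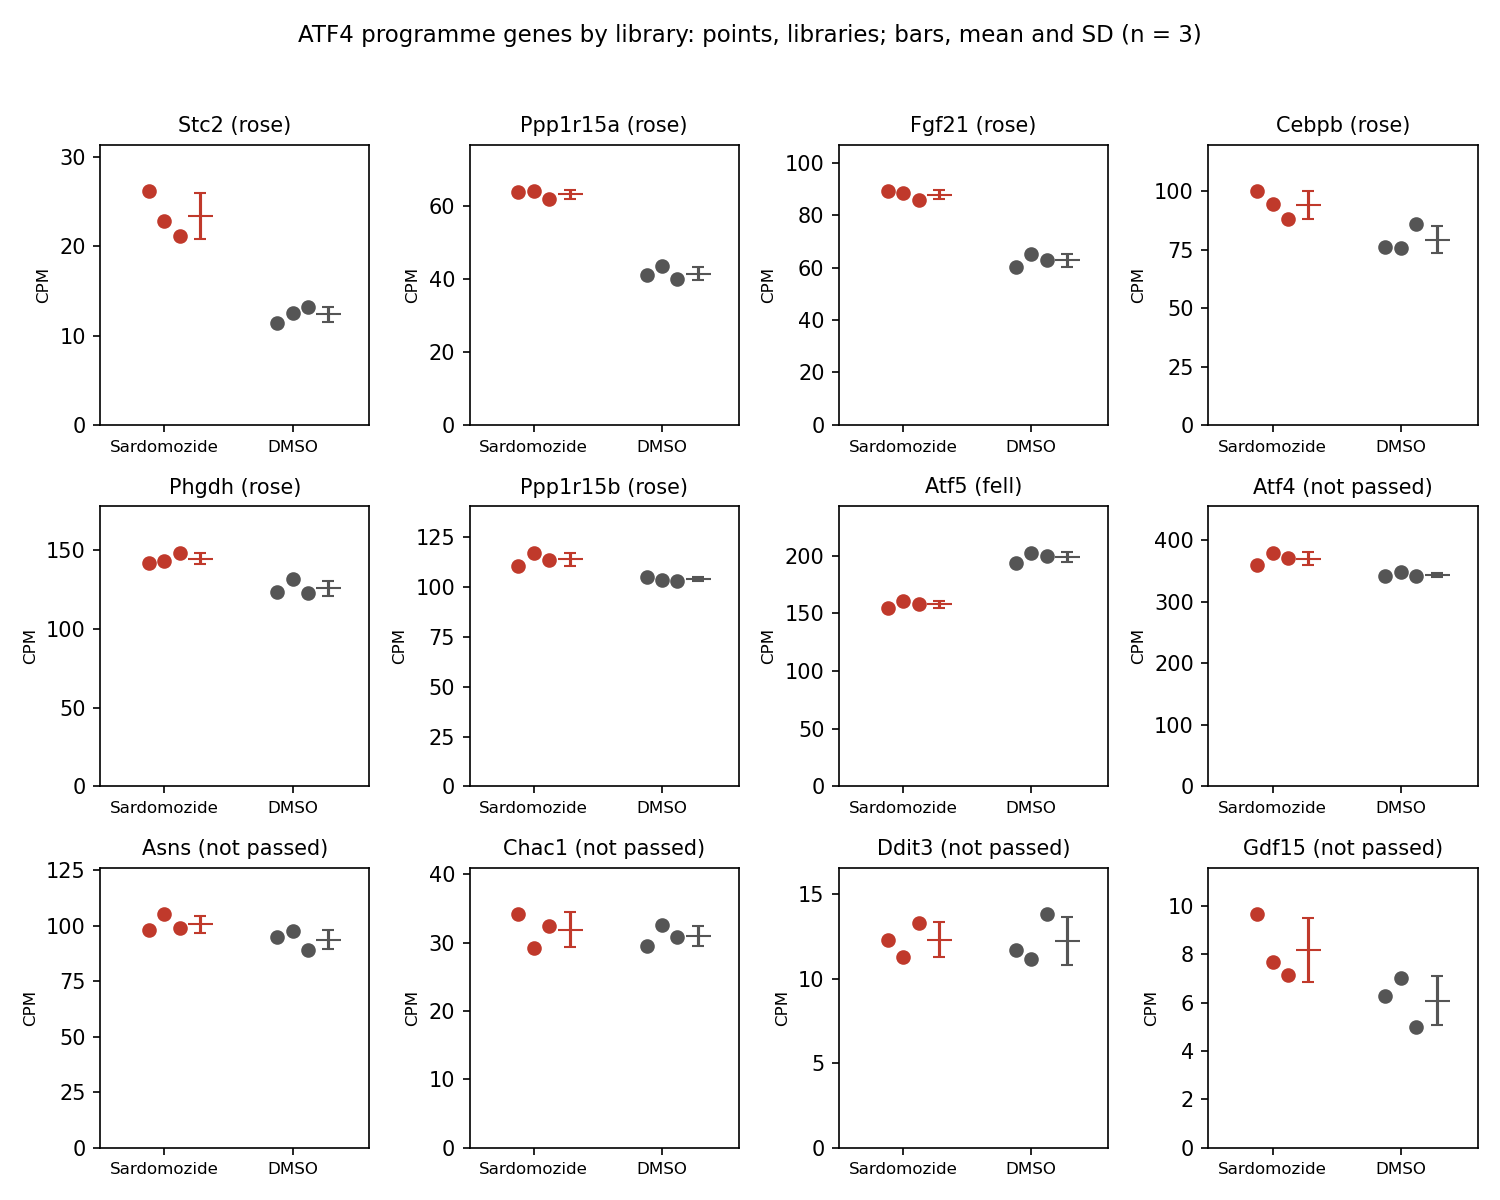
CPM in each of the 3 Sardomozide libraries (red) and 3 DMSO libraries (grey) for 12 of the 32 genes, with the mean and SD at the right of each group and axes from 0. Stc2, Ppp1r15a and Fgf21 are separated by more than the spread in either group, Atf5 is separated downwards, and Chac1 and Ddit3 overlap.

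Both phosphatase subunit genes rose by edgeR, 2 of the 6 genes of this class (33.3%, against 7.88% of all genes tested). With DESeq2 and with limma-voom, Ppp1r15a alone of the 6 was called. None of the 4 eIF2 kinase genes passed with edgeR, DESeq2 or limma-voom (1 of 4, Eif2ak4, lower at an unadjusted p under 0.05). Ppp1r15a encodes GADD34, the subunit that stress induces and that directs protein phosphatase 1 to eIF2. It had 63.7, 64.0 and 61.8 CPM with Sardomozide, against 41.1, 43.5 and 39.9 CPM with DMSO. The lowest Sardomozide library was well above the highest DMSO library. The rise was 52.3% (log2 fold change 0.61 ± 0.055, adjusted p = 2.67e-07 by edgeR), with adjusted p of at most 8.73e-06 whichever library was left out. The gene lies on chromosome 7 from 45522916 to 45526268 on the minus strand and shares 12 exon bases with Tulp2, which stayed under 0.1 CPM in both means.

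Ppp1r15b encodes CReP, the subunit made without stress. It had 110.7, 117.3 and 113.8 CPM with Sardomozide, against 105.0, 103.8 and 103.2 CPM with DMSO. The groups did not overlap, and the rise of 9.51% just passed (0.13 ± 0.044, edgeR adjusted p = 0.0452). The call was lost without Sardomozide replicate 2 or 3 or DMSO replicate 1, 2 or 3 (adjusted p = 0.138, 0.0964, 0.0998, 0.118 and 0.134), and with DESeq2, limma-voom and estimation without robustness (0.0627, 0.0539 and 0.0521). Ppp1r15b shares 640 exon bases with Gm26616, an antisense gene that the files do not list. Per exon length, Ppp1r15a stood at 1.10, 1.04 and 1.03 of the Ppp1r15b level in the Sardomozide libraries, against 0.745, 0.797 and 0.735 in the DMSO libraries (exact permutation p = 0.1, two-sided, again the lowest possible). Per exon length the induced subunit was thus the more abundant RNA with Sardomozide and the less abundant with DMSO. That order rests on the annotated exon lengths, 2937 bases for Ppp1r15a and 5594 for Ppp1r15b. In CPM, which leave out length, Ppp1r15b was the higher in every library.

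The kinase genes differed little. Eif2ak4 encodes GCN2, the sensor of uncharged tRNA, and had 20.4, 21.1 and 19.1 CPM with Sardomozide, against 21.9, 23.3 and 23.5 CPM with DMSO. Its libraries did not overlap, yet it did not pass (−0.18 ± 0.079, adjusted p = 0.131). Eif2ak3 encodes PERK, the sensor of the endoplasmic reticulum, and overlapped between groups (26.9 to 29.6 CPM with Sardomozide and 28.2 to 29.4 CPM with DMSO). Eif2ak1, the gene of the haem-regulated kinase HRI, and Eif2ak2, the gene of the RNA-activated kinase PKR, lay higher in all Sardomozide libraries (73.6 to 78.8 CPM and 25.6 to 27.2 CPM) than in the DMSO libraries (70.4 to 71.5 CPM and 22.7 to 24.7 CPM). Neither passed (adjusted p = 0.208 and 0.217). Per exon length, Eif2ak1 was the most abundant kinase RNA, with 53.3 ± 2.39 TPM (counts scaled by exon length and library size) with Sardomozide and 49.5 ± 0.148 TPM with DMSO, and Eif2ak4 the least, with 10.8 ± 0.459 and 12.2 ± 0.45 TPM in the same groups.

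Of the 8 genes of amino acid synthesis and related metabolism, Phgdh rose (12.5%, against 7.88% of all genes tested) and 7 did not pass. At an unadjusted p under 0.05, 4 of the 8 were higher and 0 lower, with no share of all genes counted at that cutoff. Phgdh encodes the first enzyme of serine synthesis and had 142, 143 and 149 CPM with Sardomozide, against 123, 132 and 123 CPM with DMSO. No libraries overlapped, and the rise was 14.8% (0.20 ± 0.044, edgeR adjusted p = 0.00382). The next enzymes of that route are encoded by Psat1, with 185, 191 and 190 CPM with Sardomozide against 179, 180 and 166 CPM with DMSO, and Psph, with 22.9, 25.4 and 22.6 CPM against 19.3, 21.4 and 21.7 CPM. In both genes every Sardomozide library was above every DMSO library, and neither passed (adjusted p = 0.0931 and 0.141). Psph shares 452 exon bases with Cct6a on the other strand, which rose (0.19 ± 0.041, edgeR adjusted p = 0.00335). A pseudogene, Phgdh-ps1, carries the name of Phgdh in the annotation, and reads that match both could have been split.

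Asns encodes asparagine synthetase, a textbook ATF4 target. It had 97.9, 105.1 and 98.9 CPM with Sardomozide, against 94.8, 97.3 and 89.0 CPM with DMSO. The groups were barely apart, and the difference of 7.33% did not pass (adjusted p = 0.168). Its 95% interval on the log2 scale, 0.0003 to 0.20, leaves out a rise as large as that of Fgf21. Proline synthesis was split in sign, with Pycr1 at −0.12 ± 0.087 and Aldh18a1 at 0.03 ± 0.047. Pck2, the mitochondrial phosphoenolpyruvate carboxykinase gene, had 48.4, 53.8 and 62.7 CPM with Sardomozide, against 59.8, 56.7 and 67.8 CPM with DMSO, and it passed as a fall only without Sardomozide replicate 3 (adjusted p = 0.0294, against up to 0.63 without another library). Cth, the cystathionine gamma-lyase gene, was low in both groups (3.40 to 5.34 CPM with Sardomozide and 3.42 to 5.51 CPM with DMSO) and its interval was wide (−0.35 to 0.48).

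The 4 secreted signals all had positive log2 fold changes, beside 6511 of the 13076 genes tested, and 2 rose (50%, against 7.88% of all genes tested). At an unadjusted p under 0.05, 3 of the 4 were higher and 0 lower, again with no share of all genes counted. Stc2 encodes stanniocalcin 2, a secreted glycoprotein. It had 26.2, 22.8 and 21.1 CPM with Sardomozide, against 11.4, 12.5 and 13.2 CPM with DMSO. The rise of 88.9% was the largest of the 32 genes (0.92 ± 0.096, edgeR adjusted p = 1.81e-06). The Sardomozide libraries also spread more widely (SD 2.57 CPM) than the DMSO libraries (SD 0.891 CPM). Stc2 lies on chromosome 11 from 31357307 to 31370074 and overlaps no other annotated exon.

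Fgf21 encodes a hormone that muscle and liver release under metabolic stress. It had 89.1, 88.4 and 85.9 CPM with Sardomozide, against 60.2, 65.1 and 63.0 CPM with DMSO. The groups were far apart, with a rise of 39.8% (0.48 ± 0.05, edgeR adjusted p = 1.39e-06), and the call was kept in all 6 fits without a library. Fgf21 lies on chromosome 7 from 45613886 to 45615490, minus strand, and overlaps no other annotated exon. Its RNA was abundant in both groups, at 368 ± 4 TPM with Sardomozide and 262 ± 8.91 TPM with DMSO.

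Gdf15, the other stress hormone gene, had 9.65, 7.68 and 7.14 CPM with Sardomozide, against 6.25, 7.002 and 4.996 CPM with DMSO. The groups did not overlap, with Sardomozide replicate 3 just above DMSO replicate 2. The estimate of 34.2% was close to that of Fgf21, but at a lower level and with a wider error (0.42 ± 0.15, edgeR adjusted p = 0.0574). It passed without Sardomozide replicate 3 or DMSO replicate 2 (adjusted p = 0.0448 and 0.0413), but the log2 fold change was 0.28 without Sardomozide replicate 1 and 0.30 without DMSO replicate 3 (adjusted p = 0.254 and 0.252). Per exon length, Fgf21 stood 21.3 ± 2.9 times above Gdf15 with Sardomozide and 20.5 ± 3.56 times with DMSO (SD, n = 3; p = 1, two-sided exact permutation test). Vegfa, the endothelial growth factor gene, had 227, 193 and 239 CPM with Sardomozide, against 198, 203 and 223 CPM with DMSO. Sardomozide replicate 2 was the lowest of all 6 libraries, the groups overlapped, and Vegfa did not pass (0.08 ± 0.078, edgeR adjusted p = 0.561). Single libraries decided this value, which was 0.16 without Sardomozide replicate 2 (adjusted p = 0.0378), 0.13 without DMSO replicate 3 (0.318), 0.04 without DMSO replicate 1 (0.823) and 0.01 without Sardomozide replicate 3 (0.92).

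**Figure D3:**
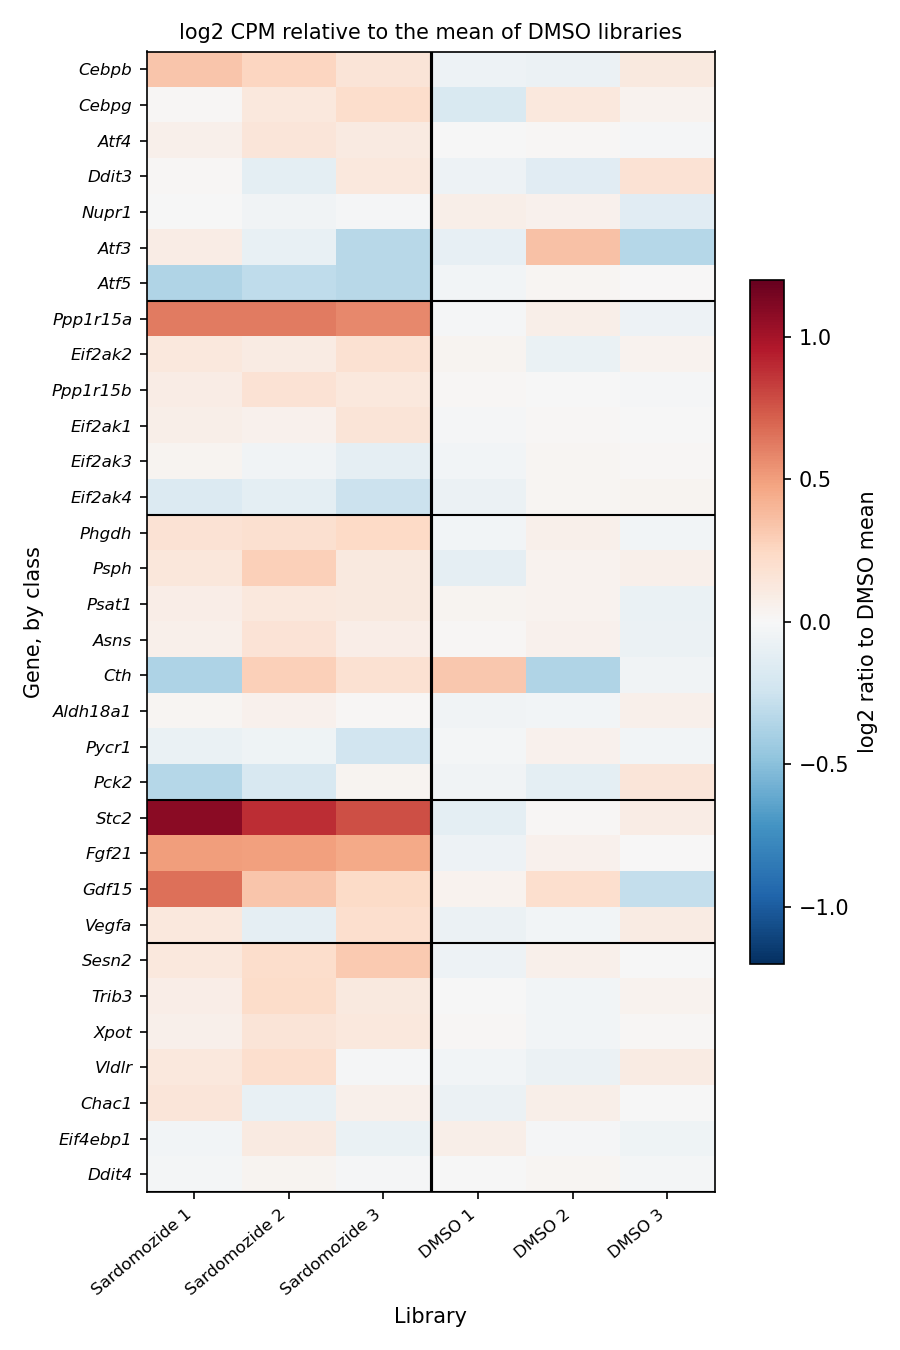
Log2 ratio of the CPM of each library to the mean of the DMSO libraries for the 32 genes, grouped by class and ordered by fold change within it. The rows of Stc2, Ppp1r15a and Fgf21 are red in all 3 Sardomozide libraries and that of Atf5 is blue, whereas Ddit3, Chac1 and Ddit4 have no shared colour across those libraries.

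None of the 7 other effectors passed with edgeR, DESeq2 or limma-voom (2 of 7, Sesn2 and Xpot, higher at an unadjusted p under 0.05). All 7 log2 fold changes were above 0, from 0.0005 to 0.22, beside 6511 of the 13076 genes tested. Sesn2, the gene of a leucine sensor that restrains mTORC1, had 24.6, 26.2 and 28.1 CPM with Sardomozide, against 21.6, 23.6 and 22.5 CPM with DMSO. Its groups did not overlap (0.22 ± 0.077, adjusted p = 0.0574), and over the fits without a library the adjusted p ran from 0.034, without Sardomozide replicate 1, to 0.2. Xpot, which encodes the exporter of tRNA from the nucleus, had 151, 161 and 158 CPM with Sardomozide, against 146, 142 and 147 CPM with DMSO (adjusted p = 0.0804), and over the fits without a library that p ran from 0.0339, without Sardomozide replicate 1, to 0.233.

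Trib3 encodes a pseudokinase that feeds back on ATF4 and CHOP. It had 14.1, 15.5 and 14.4 CPM with Sardomozide, against 13.3, 13.0 and 13.7 CPM with DMSO, apart but not passing (adjusted p = 0.328). Chac1 encodes an enzyme that breaks down glutathione and is known as a sensitive ATF4 target. It had 34.1, 29.1 and 32.4 CPM with Sardomozide, against 29.5, 32.5 and 30.8 CPM with DMSO. The lowest of the 6 libraries was a Sardomozide library, and the 95% interval ran from −0.11 to 0.19. Ddit4 encodes REDD1, a brake on mTORC1, and Eif4ebp1 encodes an inhibitor of cap-dependent translation. Ddit4 had 30.7 to 31.9 CPM with Sardomozide and 30.7 to 31.6 CPM with DMSO, and Eif4ebp1 had 93.5 to 106.8 CPM with Sardomozide and 95.2 to 103.9 CPM with DMSO. Their 95% intervals ran from −0.13 to 0.13 and from −0.11 to 0.11. Vldlr, a lipoprotein receptor gene, overlapped between the groups (0.11 ± 0.07).

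The 32 genes spanned a wide range of levels per exon length. Atf4 was the most abundant, at 627 ± 19.1 TPM with Sardomozide and 579 ± 1.85 TPM with DMSO. Fgf21 came next in the Sardomozide libraries, where its lowest library (364 TPM) lay above the highest of Atf5 (319.8 TPM). Atf5 came next in the DMSO libraries, above Fgf21. Atf5 had 316 ± 6.69 TPM with Sardomozide and 396 ± 7.18 TPM with DMSO. At the other end were Cth (6.55 ± 1.5 TPM with Sardomozide and 6.25 ± 1.52 TPM with DMSO) and Atf3 (6.45 ± 0.877 and 6.87 ± 1.66 TPM). In the order of DMSO levels, the ranges over libraries overlapped for 16 of the 31 neighbouring pairs, among them Cebpb with Phgdh, Phgdh with Vegfa and Pck2 with Ddit3. Stc2, with the largest fold change, was among the least abundant, with 18.0 ± 1.86 TPM with Sardomozide and 9.46 ± 0.685 TPM with DMSO.

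**Figure D4:**
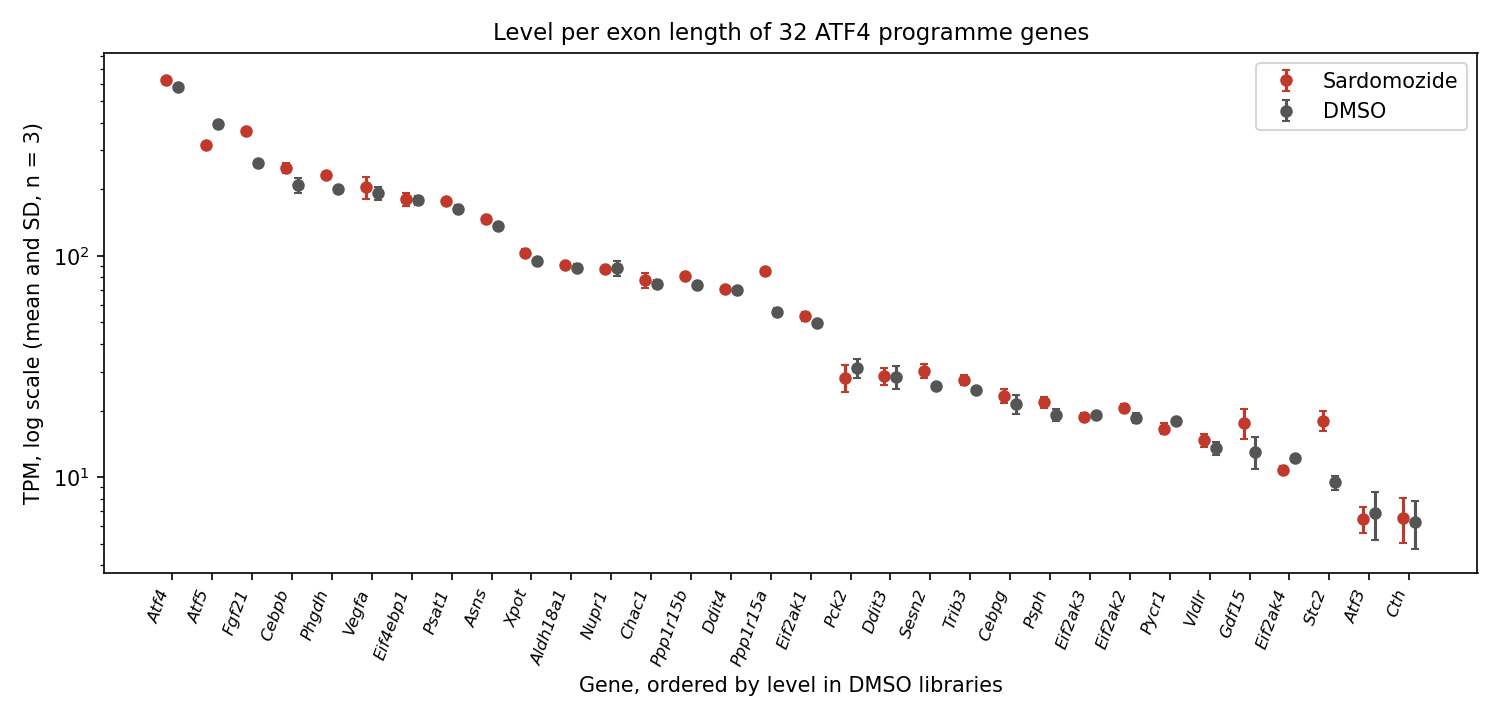
Level per exon length in TPM on a log axis (mean and SD, n = 3 libraries per group; Sardomozide red, DMSO grey) for the 32 genes, ordered by level with DMSO. Atf4 is highest in both groups (627 and 579 TPM), and the red point lies clearly above the grey for Fgf21, Ppp1r15a and Stc2 and below it for Atf5.

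Replicates of these genes lay close together. The coefficient of variation had a median of 5.02% over the 32 genes with Sardomozide and 4.44% with DMSO, and the widest were 22.6% with Sardomozide and 24.8% with DMSO. Sardomozide replicate 2 held the highest value of all libraries for 11 of the 32 genes, Sardomozide replicates 1 and 3 for 6 each, and the DMSO libraries for 2, 3 and 4. DMSO replicate 3 held the lowest for 10 genes. The summed level of the 6 kinase and phosphatase genes was 325 to 330 CPM with Sardomozide and 291 to 294 CPM with DMSO, and most of that difference lay in Ppp1r15a (means of 63.2 CPM with Sardomozide and 41.5 CPM with DMSO) and Ppp1r15b (113.9 CPM with Sardomozide and 104.0 CPM with DMSO). The sums of the amino acid synthesis genes (608 to 635 CPM with Sardomozide and 584 to 597 CPM with DMSO), the secreted signals (312 to 353 CPM with Sardomozide and 276 to 305 CPM with DMSO) and the other effectors (389 to 410 CPM with Sardomozide and 373 to 379 CPM with DMSO) were also apart. That of the 7 transcription factors was 717 to 737 CPM with Sardomozide and 713 to 733 CPM with DMSO, ranges that overlap. Abundant genes weigh most in such sums, such as Vegfa, whose own libraries overlapped between the groups. Libraries of the groups did not overlap for 33.5% of all genes tested, and no such share was computed for sums.

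Of 67 further genes of the pathway, 63 were tested, 12 rose (19.0%, against 7.88% of all genes tested) and 51 did not pass. By edgeR 0 fell at an adjusted p under 0.05, against 8.45% of all genes tested, and 5 were lower at an unadjusted p under 0.05. With DESeq2 and with limma-voom 0 fell. The median log2 fold change of the 63 genes was 0.03. Genes of eIF2 and of eIF2B, its exchange factor and the target of phosphorylated eIF2, had log2 fold changes above 0 in 8 of 8 cases. Over all genes tested this held for 6511 of 13076. Of the 8 genes 4 rose (50%, against 7.88% of all genes tested). Eif2s2, the beta subunit of eIF2, had 257 ± 5.01 CPM with Sardomozide and 210 ± 2.54 CPM with DMSO (0.29 ± 0.04, edgeR adjusted p = 5.69e-05), and Eif2b4, the delta subunit of eIF2B, had 53.0 ± 2.72 and 42.6 ± 0.573 CPM in the same groups (0.32 ± 0.058, 0.000723). Eif2s1, the alpha subunit that the kinases phosphorylate, and Eif2b3 rose by less (0.14 and 0.21, edgeR adjusted p = 0.037 and 0.041). Those calls were lost in 6 and 5 of the 6 fits that left out a library, and both were lost with DESeq2 and with a replicate block. Of the 10 genes of phosphatase catalytic subunits and kinase regulators, 1 rose (10%, against 7.88% of all genes tested). This was Ppp1cb, which encodes a catalytic subunit of protein phosphatase 1 (237 ± 5.09 CPM with Sardomozide and 191 ± 4.68 CPM with DMSO, edgeR adjusted p = 3.98e-05). Its paralogs Ppp1ca and Ppp1cc had log2 fold changes of −0.02 and 0.007 and did not pass.

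Of 9 amino acid transporter genes 2 rose (22.2%, against 7.88% of all genes tested). Slc38a2, the gene of the glutamine and neutral amino acid carrier SNAT2, had 521, 525 and 559 CPM with Sardomozide, against 434, 441 and 430 CPM with DMSO (0.30 ± 0.042, edgeR adjusted p = 6.39e-05). Slc7a1, a cationic amino acid transporter gene, rose by 0.21 ± 0.047 on the log2 scale. Slc7a11 and Slc7a5, other known ATF4 targets, had log2 fold changes of 0.22 ± 0.19 and 0.06 ± 0.045 and did not pass. Of 6 tested genes of other amino acid and one-carbon enzymes 2 rose (33.3%, against the same 7.88%), namely Gpt2, an alanine aminotransferase gene (278 ± 14.3 CPM with Sardomozide and 227 ± 3.72 CPM with DMSO, edgeR adjusted p = 0.000107), and Aldh1l2, a mitochondrial folate enzyme gene (0.25 ± 0.056, 0.00382). Mthfd2, whose enzyme also works in the mitochondrial folate pathway, did not pass (0.03 ± 0.047).

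Of 7 related bZIP factor genes 2 rose (28.6%, against 7.88% of all genes tested), Atf6 and Atf6b (0.24 ± 0.043 and 0.23 ± 0.052, edgeR adjusted p = 0.000601 and 0.0034). Among 12 targets of XBP1 and ATF6, the other arms of the unfolded protein response, Herpud1 rose (0.24 ± 0.048, edgeR adjusted p = 0.00164) and 11 did not pass. The share that rose, 8.33%, was near the 7.88% of all genes tested. Of the 12 log2 fold changes 9 were below 0, beside 6565 of the 13076 genes tested. At an unadjusted p under 0.05, 1 of the 12 was higher and 2 lower. Hspa5, the gene of the chaperone BiP, had 708 ± 23.2 CPM with Sardomozide and 751 ± 17.7 CPM with DMSO (−0.09 ± 0.043, adjusted p = 0.195). None of 6 genes linked to CHOP and cell death passed with edgeR, DESeq2 or limma-voom, 0 were under an unadjusted p of 0.05, and the smallest adjusted p among them was 0.218, for Ero1l, followed by Pmaip1 with 0.496. Of the receptors for the secreted signals, Gfral, the receptor of GDF15, had 0 counts in all 6 libraries, which allows up to 0.0822 to 0.118 CPM depending on the library, and Klb, the FGF21 co-receptor gene, had at most 5 counts. Among the 5 receptor genes tested none passed with edgeR, DESeq2 or limma-voom, 0 were under an unadjusted p of 0.05, and the smallest adjusted p were those of Fgfr1 (0.263) and Ret (0.382).

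**Figure D5:**
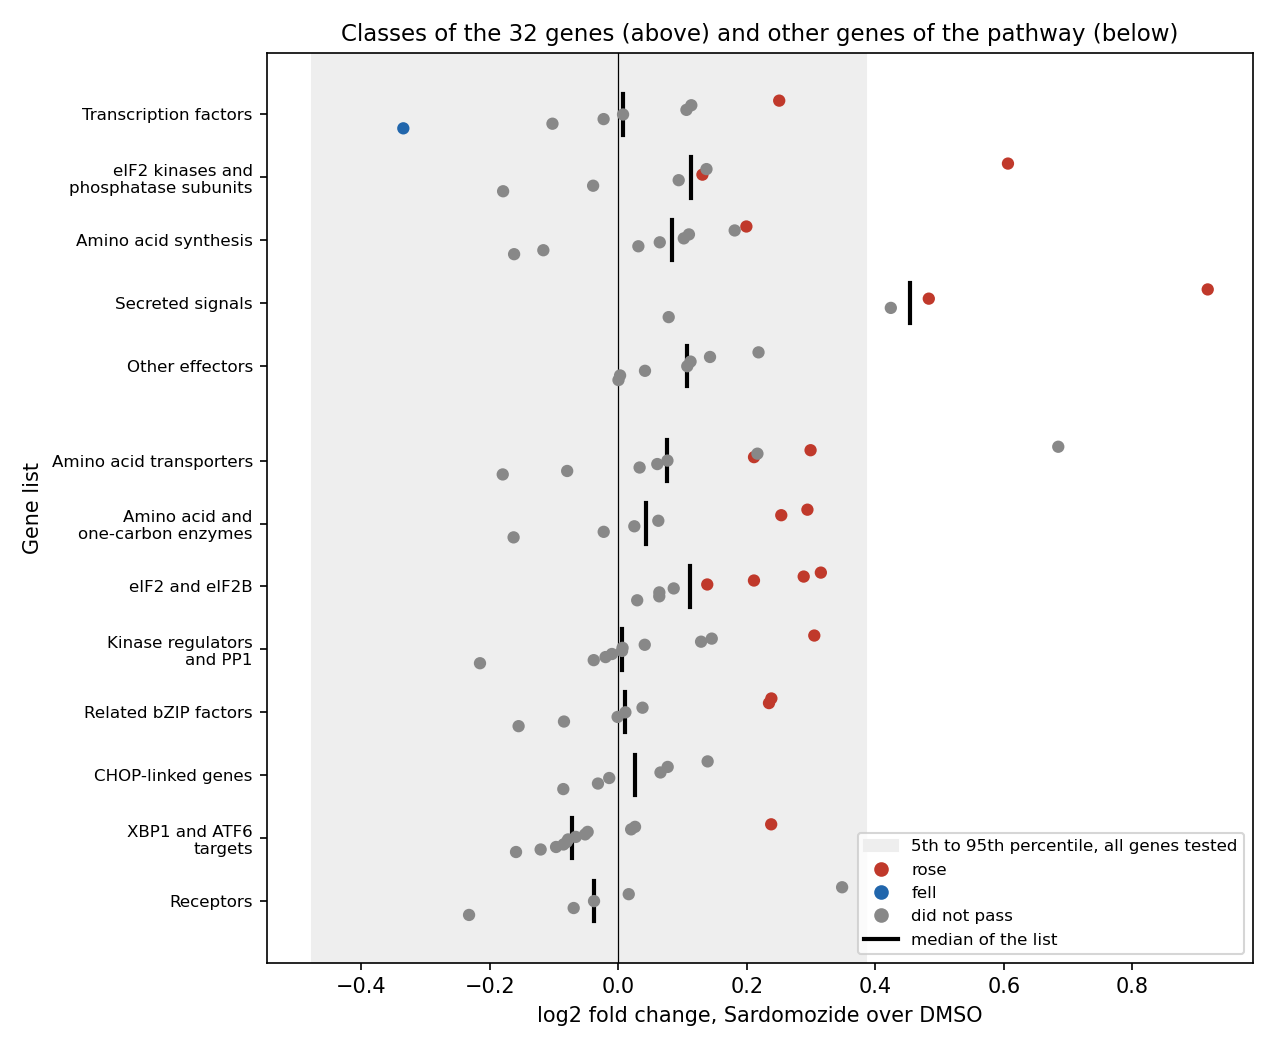
Log2 fold change, Sardomozide over DMSO, of each tested gene in the 5 classes of the 32 genes (upper rows) and the 8 lists of other pathway genes (lower rows), with the median of each list as a black bar and the span between the 5th and 95th percentiles of all genes tested (−0.48 to 0.39) in grey. The secreted signals have the highest median (0.45), and the points outside the grey span to the right are Stc2, Ppp1r15a and Fgf21, which rose, and Gdf15 and Slc7a3, which did not pass.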

How the data were processed

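For each of 6 libraries the authors deposited a table of raw counts by gene symbol, with 24411 symbols and no summary lines. Per the labels' protocols, total RNA was sequenced with paired reads of 150 bases. STAR, StringTie and DESeq2, with GRCm38 and mm10, are named in the submitters' processing notes; the sources used here give no version, annotation, strand setting or rule for reads with several matches. Whether the replicate libraries are separate cultures is not stated in the labels, and no batch is named; the p-values then measure the spread among these libraries alone, which may be technical.

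Groups and replicate numbers came from the labels. Genes were filtered with filterByExpr (minimum count 10, minimum total 15), leaving 13076. They were scaled by TMM and compared with edgeR 4.0.16 under R 4.3.3 (robust glmQLFit, glmQLFTest, treatment as the single term, two-sided), with Benjamini-Hochberg adjustment over all genes tested and a threshold of 0.05. CPM use TMM-scaled library sizes. TPM and positions use exon lengths of GENCODE M21 (GRCm38), matched for 24043 symbols. Errors of log2 fold changes are SE, computed as the fold change divided by the root of its F statistic, and errors of CPM and TPM are SD over 3 libraries. A count of 0 allows up to 3 counts, and this limit covers counting error only. Pairs of replicates differed by more than sampling noise, so all were kept. Chi-square per degree of freedom was 9.06 to 16.1 between Sardomozide libraries and 5.45 to 6.88 between DMSO libraries. The highest values were in the pairs with Sardomozide replicate 2. Steps were tested on simulated counts.

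All 32 genes were named, and of each list of other genes up to 4 that passed with the smallest adjusted p, or 2 where none passed. Slc7a11, Slc7a5, Mthfd2, Hspa5, Ppp1ca, Ppp1cc, Slc7a3, Gfral and Klb were added to these once their values had been seen. The 32 genes and all lists were chosen with earlier results of these data known. Alternatives were DESeq2 1.42.0, limma-voom (limma 3.58.1), scaling by RLE, by the upper quartile or not at all, no filter, a filter at a mean of 5 CPM, non-robust estimation, a replicate block, and each library left out.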

Additional observations from a re-analysis of the deposited data

How the results depend on the processing

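Of the 7 genes that passed, Stc2, Ppp1r15a, Fgf21, Cebpb, Phgdh and Atf5 kept their call and direction in all 9 alternative fits and in all 6 fits without a library. Ppp1r15b did not; its adjusted p ran from 0.0293 to 0.138 over fits without a library. The number of the 32 genes that rose was 5 to 7 over the 9 alternatives and 5 to 9 over fits without a library, and the number that fell was 1 to 2, with 2 without Sardomozide replicate 3. Of the other pathway genes 10 to 13 rose over all settings and 0 to 1 fell (Mthfd1l without Sardomozide replicate 2, Slc6a9 without DMSO replicate 1). Over all genes, 620 to 927 rose and 706 to 1025 fell in fits without a library, lowest without DMSO replicate 1 (620 and 706), then without DMSO replicate 3 (672 rose). The cause was not tested, and these fits have fewer samples. Gdf15 passed with no filter on low counts (adjusted p = 0.0246). Log2 fold changes near 0 changed sign in 7 of the 25 genes that did not pass. Ddit4 turned to −0.000744 with upper-quartile factors, −0.00012 with limma-voom and −0.000986 with the stricter filter. Over fits without a library, Ddit4 ran from −0.0162 to 0.0115, Atf3 from −0.25 to 0.12, Ddit3 from −0.0585 to 0.106, Nupr1 from −0.0864 to 0.0131, Cth from −0.0917 to 0.252, Chac1 from −0.0111 to 0.103 and Eif4ebp1 from −0.0542 to 0.043. Replicate numbers are shared by the groups. The deviations of same-numbered libraries correlated by −0.023 to 0.022, and those of differently numbered libraries by −0.050 to 0.071. With 3 libraries per group these values cannot settle whether the numbers pair the libraries. With the replicate number as a block, 855 genes rose and 965 fell, and of the 32 genes 5 rose, with Ppp1r15b at an adjusted p of 0.0821. Depth limits what can be said of Atf3, Cth and Gdf15, which had 88 to 352 counts in a library.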
